A study of Mus musculus with 4 samples.

Results

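The genes described here encode enzymes that methylate lysine 9 of histone H3 (H3K9), and they were followed through the growth of the mouse oocyte. They are Ehmt1, Ehmt2, Setdb1, Setdb2, Suv39h1 and Suv39h2, taken by name from the deposited expression table, which lists each of them once, so that they make up 6 of 25587 listed genes. The RNA came from wild-type C57BL/6 mice (strain C57BL/6Babr), from non-growing oocytes (NGOs) at 5 days post-partum (dpp) measuring 10 to 40 μm, growing oocytes at 8 to 14 dpp of 25 to 70 μm (GO1) and at 15 dpp of 50 to 70 μm (GO2), and fully grown oocytes (FGOs) at 20 dpp of over 70 μm. Total RNA of pooled oocytes was depleted of ribosomal RNA and made into strand-specific libraries, with a dUTP protocol for NGOs and FGOs and with the ScriptSeq kit for GO1 and GO2. There was 1 library per stage, so no difference could be set against the spread between replicates and no test was made. All intervals given are 95 % intervals for counting error only.

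Methylation of H3K9 marks silent chromatin. EHMT1 (also known as GLP) and EHMT2 (G9a) work as a heterodimer that places mono- and dimethylation in euchromatin, SETDB1 places trimethylation at retrotransposons and other targets to which TRIM28 and KRAB zinc finger proteins bring it, and SUV39H1 and SUV39H2 place trimethylation at pericentric heterochromatin, where HP1 proteins bind it. In oocytes these marks are laid down while the cell grows, G9a contributes to H3K9 dimethylation, SETDB1 holds retrotransposons down, and DPPA3 binds dimethylated H3K9 in the zygote and protects the maternal genome from demethylation.

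The promoters of the EHMT and SUV39H genes are shown because within each of these pairs one gene changed past 2-fold over growth and its partner did not. Each is a RefSeq window (build GRCm38.p6) of 300 bases, from 250 before to 50 after the transcription start nearest to the start in the deposited table, read 5′ to 3′ on the strand of the gene, and capitals mark CpG dinucleotides. The windows are chr2:24919560-24919859 (minus strand) for Ehmt1, chr17:34898224-34898523 (plus) for Ehmt2, chrX:8074711-8075010 (minus) for Suv39h1 and chr2:3474937-3475236 (minus) for Suv39h2.
Ehmt1: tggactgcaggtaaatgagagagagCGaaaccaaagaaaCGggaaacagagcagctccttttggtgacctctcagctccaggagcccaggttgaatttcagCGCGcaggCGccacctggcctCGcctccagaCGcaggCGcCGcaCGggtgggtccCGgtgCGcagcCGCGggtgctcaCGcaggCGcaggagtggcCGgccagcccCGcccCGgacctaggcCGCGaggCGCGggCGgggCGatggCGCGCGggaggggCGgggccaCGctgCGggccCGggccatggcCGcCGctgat
Ehmt2: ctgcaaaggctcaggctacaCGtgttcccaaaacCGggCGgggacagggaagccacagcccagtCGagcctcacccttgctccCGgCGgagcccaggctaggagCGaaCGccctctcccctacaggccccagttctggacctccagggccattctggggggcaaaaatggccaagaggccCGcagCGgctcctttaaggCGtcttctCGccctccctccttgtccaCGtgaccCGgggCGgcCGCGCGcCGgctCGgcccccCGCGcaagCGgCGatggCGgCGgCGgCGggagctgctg
Suv39h1: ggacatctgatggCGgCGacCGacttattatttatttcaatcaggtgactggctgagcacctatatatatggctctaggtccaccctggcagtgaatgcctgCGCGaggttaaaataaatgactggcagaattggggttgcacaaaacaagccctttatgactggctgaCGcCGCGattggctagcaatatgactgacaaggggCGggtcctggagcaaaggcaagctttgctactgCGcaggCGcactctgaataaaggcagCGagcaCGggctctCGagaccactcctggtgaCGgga
Suv39h2: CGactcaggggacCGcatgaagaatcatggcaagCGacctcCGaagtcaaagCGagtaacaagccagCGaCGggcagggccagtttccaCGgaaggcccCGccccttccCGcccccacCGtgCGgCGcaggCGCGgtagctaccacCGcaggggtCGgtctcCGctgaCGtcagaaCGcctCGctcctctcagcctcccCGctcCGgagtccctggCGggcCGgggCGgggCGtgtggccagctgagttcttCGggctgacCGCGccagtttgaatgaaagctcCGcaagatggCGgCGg

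CpGs were plentiful in the windows of Ehmt1 (34), Suv39h2 (33), Setdb2 (29) and Ehmt2 (28), all above the upper quartile of 20 among 32851 RefSeq windows of this length. Setdb1 and Suv39h1 had 15 each, against a median of 7 over all windows. A few short motifs were searched on both strands, and the set was chosen after the sequences were seen. The NRF1 motif GCGCANGCGC was found once each in Ehmt1, Suv39h1 and Suv39h2, in 4.6 % of all windows and in 12.0 % of the 11378 windows with at least 15 CpGs. The SP/KLF motif GGGCGG occurred in all windows but that of Setdb2 (35.7 % of all windows, 76.8 % of the CpG-rich ones). CCAAT, the NFY motif, occurred 2 times in Suv39h1, 2 times in Setdb2 and 1 time in Setdb1 (37.4 % of all windows, 34.9 % of the CpG-rich ones). The E-box CACGTG was present only in Ehmt2 among the 6 genes, in 2 copies (7.15 % of all windows, 11.3 % of the CpG-rich ones). No matches to different motifs overlapped in these windows, and a match describes the letters and not the use of a site.

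In the deposited coordinates (GRCm38) Ehmt1 spans chr2:24790769-24919609 and Suv39h2 chr2:3455815-3475031, both on the minus strand, and Ehmt2 lies at chr17:34898469-34914052 on the plus strand. Setdb1 (chr3:95323525-95357202), Setdb2 (chr14:59402009-59440884) and Suv39h1 (chrX:8061171-8074760) are on minus strands. The longest coding transcript in GENCODE has 27 exons for both Ehmt1 and Ehmt2, 22 for Setdb1, 15 for Setdb2 and 6 each for Suv39h1 and Suv39h2.

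Expression is given as RPKM, a count divided by exon length in kilobases and by the library total, and from these values whole counts were recovered for each gene. The library totals behind them were 110595207 counts for NGO, 126796745 for GO1, 241385711 for GO2 and 119629249 for FGO, and 60.4 to 62.7 % of these totals lay on listed genes. These totals are several times the numbers of uniquely mapped reads the study gives, and for NGO, GO2 and FGO they exceed even both ends of all sequenced pairs, so a count is not an independent read and the intervals are too narrow. Overlaps were therefore also examined with all counts divided by 4, an alternative added after the values were seen. All 11 oocyte markers were high in every library, with summed RPKM between 4334 and 6542 and no single marker below 20.6. Markers of ovarian stroma (6 genes) summed to 5.51 RPKM in NGOs and to 0.158, 0.238 and 0.245 in GO1, GO2 and FGOs, where Lum was listed at 0. Of these markers, Pdgfra was nearly the same in NGOs (0.189) and GO2 (0.188). Those of granulosa cells (9 genes, none at 0) summed to 5.97, 12.0, 16.5 and 19.4, carried by Nr5a2 (3.62, 9.57, 11.4 and 8.65) and Cyp19a1 (0.518, 1.08, 3.13 and 6.08), and the other 7 summed to 1.83, 1.37, 1.98 and 4.66. Of the blood and endothelial markers 5 of 7 were listed. They summed to 3.33 in NGOs and to at least 5.70 in the later libraries. The higher later sums came from Pecam1 alone (1.74, 5.15, 8.28 and 9.70 from NGO to FGO). The other listed markers were highest in NGOs. Hba-a1 was at 0.902 in NGOs and at or near 0 in the others, and Cdh5 at 0.041, 0.002, 0 and 0. Cd68 stood at 0.626, 0.546, 0.587 and 0.326, and Ptprc at 0.019, 0.0028, 0.0037 and 0.016. In pooled cells, fewer cells holding a transcript and less of it per cell cannot be told apart.

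Per length, Setdb1 was the highest of the 6 genes in every library and Suv39h2 the next, whereas Suv39h1 was the lowest throughout. The summed RPKM of the 6 genes was 60.2 for NGO, 71.4 for GO1, 74.2 for GO2 and 71.2 for FGO. Setdb1 made up 44.7, 43.0, 45.3 and 49.1 % of this sum in the same order, and Suv39h2 26.2, 34.1, 29.4 and 28.4 %. Between them and Suv39h1 the order of the other genes was not fixed. In NGOs Ehmt1 was followed by Ehmt2 and then Setdb2, and in GO1, GO2 and FGOs Setdb2 was followed by Ehmt1 and then Ehmt2. The intervals of neighbours in this order did not overlap, also with counts divided by 4, except for Setdb2 (6.70 to 7.17) and Ehmt1 (6.67 to 7.02) in FGOs. In NGOs the order of Ehmt1 and Ehmt2 depended on the gene length, as described with their ratio.

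**Figure D1:**
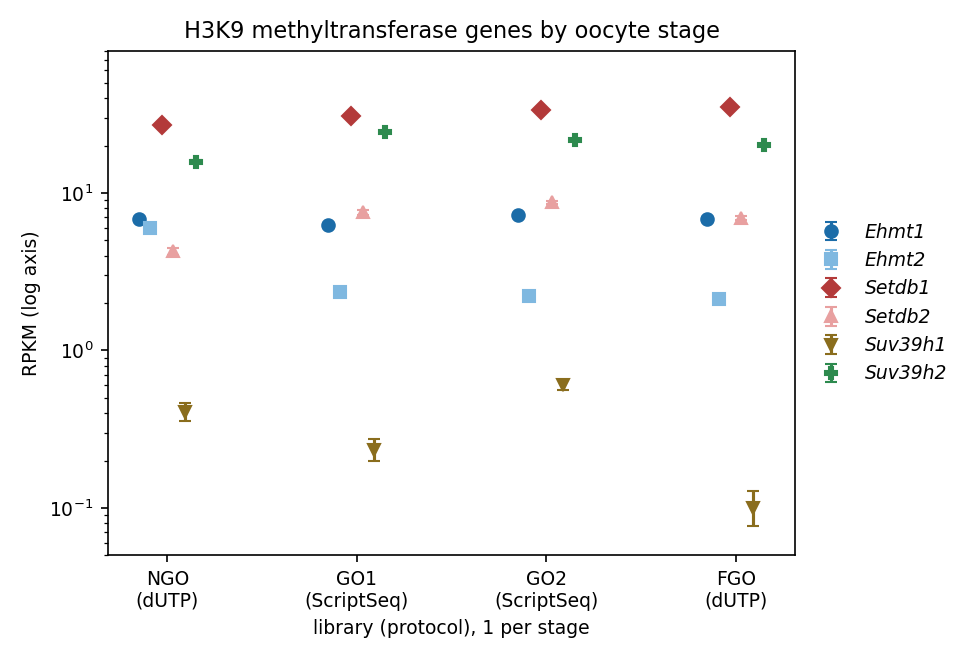
RPKM (log axis) of the 6 H3K9 methyltransferase genes in the 4 libraries, in order of oocyte growth and with the protocol of each; points are single libraries and bars are 95 % Poisson intervals, hidden by the symbol where they are narrow. Setdb1 stays between 26.9 and 35.0, Ehmt2 has its highest value in NGOs, and Suv39h1 lies below 1 in every library.

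Of the heterodimer, Ehmt1 was nearly level and Ehmt2 was high in NGOs alone. Ehmt1 had an RPKM of 6.81 for NGO, 6.23 for GO1, 7.24 for GO2 and 6.84 for FGO, from 5378, 5639, 12464 and 5843 counts. Its highest library exceeded its lowest by 1.16-fold, the narrowest range of the 6 genes, and the intervals of NGO and FGO overlapped. With counts divided by 4, GO1 and GO2 were the only libraries whose Ehmt1 intervals did not overlap. Ehmt2 had 5.99 (interval 5.80 to 6.19) for NGO, 2.34 (2.23 to 2.46) for GO1, 2.21 (2.13 to 2.29) for GO2 and 2.13 for FGO (2.02 to 2.24), from 3638, 1630, 2930 and 1398 counts. The NGO interval lay clear of the others, also with counts divided by 4, while those of GO1, GO2 and FGO overlapped with each other. In NGOs Ehmt2 contributed 9.96 % of the summed RPKM of the 6 genes, and in the later libraries 2.98 to 3.28 %.

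The ratio of Ehmt1 to Ehmt2, in which the scaling of the library drops out, was 1.14 (1.09 to 1.19) for NGO, 2.66 (2.52 to 2.81) for GO1, 3.27 (3.14 to 3.41) for GO2 and 3.21 for FGO (3.03 to 3.41). The partners were thus close to each other in NGOs and apart in the later libraries. With the full exon length of Ehmt1 in GENCODE the ratio in NGOs was 0.9997, and with the length of the longest coding transcript of each gene, an alternative added after the values were seen, it was 0.9996. Which partner was higher in NGOs was therefore not settled, whereas Ehmt1 was the higher one in the other libraries with each of these lengths (2.34 to 2.88). The summed RPKM of the stromal markers was highest in the same library as Ehmt2, at 5.51 in NGOs against at most 0.245 elsewhere. In NGOs 6 of 6 of these genes were at or above the floor of 3 counts, and in the others 5 of 6. Pdgfra did not follow the sum, at 0.189 for NGO, 0.089 for GO1, 0.188 for GO2 and 0.151 for FGO. The part of stromal markers in the Ehmt2 value was not tested.

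Both genes of the SETDB pair were lowest in NGOs. Setdb1, which silences retrotransposons with TRIM28, had an RPKM of 26.9 (26.6 to 27.3) for NGO, 30.7 (30.4 to 31.1) for GO1, 33.6 (33.3 to 33.9) for GO2 and 35.0 for FGO (34.5 to 35.4), from 20406, 26716, 55575 and 28654 counts. In RPKM each library was above the one before it, but the intervals of GO2 and FGO met with counts divided by 4. The whole range was 1.30-fold and crosses both protocols. With the libraries scaled as for the changes between stages, FGO lay slightly below GO2 (log2 -0.07, interval -0.09 to -0.05), so the last step depended on the scaling. The RPKM values put Setdb1 above 92.2 to 95.1 % of the genes detected in each library (at least 3 counts). Setdb2, a related enzyme whose targets are less well known, had 4.25 (4.06 to 4.45) for NGO, 7.52 (7.28 to 7.76) for GO1, 8.74 (8.56 to 8.93) for GO2 and 6.93 for FGO (6.70 to 7.17). NGOs were lowest and GO2 highest, 2.06-fold apart. The intervals of the 4 libraries did not overlap, but with counts divided by 4 those of GO1 and FGO did. The ratio of Setdb1 to Setdb2 was 6.33 (6.05 to 6.64) for NGO, 4.09 (3.96 to 4.23) for GO1, 3.84 (3.76 to 3.93) for GO2 and 5.04 for FGO (4.86 to 5.23), so it was higher in the dUTP libraries than in the ScriptSeq libraries, and stage and protocol cannot be told apart here.

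The SUV39H pair was the most uneven, and nearly all of its counts came from Suv39h2. Suv39h2 had an RPKM of 15.8 (15.4 to 16.1) for NGO, 24.3 (23.9 to 24.8) for GO1, 21.8 (21.5 to 22.1) for GO2 and 20.2 for FGO (19.8 to 20.6), from 7702, 13615, 23189 and 10655 counts. It was lowest in NGOs and highest in GO1, 1.54-fold apart, with no overlap between libraries under either set of intervals. Suv39h1 had 0.408 (0.358 to 0.464) for NGO, 0.234 (0.198 to 0.273) for GO1, 0.601 (0.559 to 0.645) for GO2 and 0.0999 for FGO (0.0768 to 0.128), from 238, 156, 764 and 63 counts. Its libraries did not overlap either, but with counts divided by 4 NGO overlapped with GO1 and with GO2, and its range of 6.01-fold was the widest of the 6 genes. The extremes of Suv39h1 (GO2 and FGO) and of Suv39h2 (NGO and GO1) cross protocols, so stage and protocol cannot be told apart in these ranges. Within a protocol, the RPKM ratio of Suv39h1 was 0.245 for FGO over NGO and 2.57 for GO2 over GO1. Suv39h1 was above only 18.8 to 41.7 % of the genes detected in each library, and Suv39h2 above 85.8 to 91.7 %. Suv39h2 exceeded Suv39h1 by 38.7-fold (34.0 to 44.2) for NGO, 104-fold (89.1 to 123) for GO1, 36.3-fold (33.8 to 39.0) for GO2 and 202-fold for FGO (158 to 263). With the length of the longest coding transcript of each gene these ratios were 23.3, 62.9, 21.9 and 122, so their size depended on the gene length used. Their order over the libraries could not change, since a change of length multiplies the ratio alike in every library. The lowest and highest of these ratios, in GO2 and FGO, also cross protocols.

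**Figure D2:**
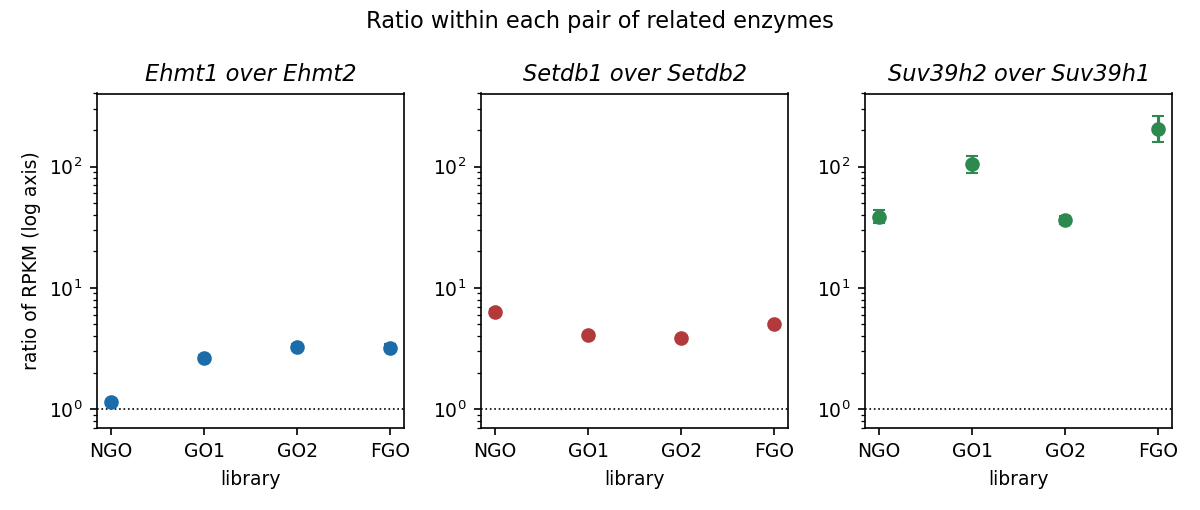
Ratio of RPKM (log axis) within each pair of related enzymes in the 4 libraries, with 95 % intervals for counting error; the dotted line marks equal levels. Ehmt1 over Ehmt2 goes from 1.14 in NGOs to 2.66 and above in the later libraries, Setdb1 over Setdb2 stays between 3.84 and 6.33, and Suv39h2 over Suv39h1 lies between 36.3 and 202 (21.9 and 122 with the length of the longest coding transcript).

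Suv39h1, low in every library, overlaps a neighbour on the opposite strand. Gm14820, annotated as an antisense gene on the plus strand, shares 767 exonic bases with Suv39h1, or 14.6 % of its exon length, and was listed at an RPKM of 42.9 for NGO, 51.0 for GO1, 61.4 for GO2 and 81.0 for FGO. If counts on the shared bases had been assigned to both strands, at even coverage, Suv39h1 would have stood at 6.24, 7.42, 8.93 and 11.8. The deposited values were 6.54, 3.15, 6.73 and 0.848 % of these. The coverage of the shared bases themselves was not measured. Gm14820 was highest in FGOs and Suv39h1 lowest there. From NGO to GO1 Gm14820 was higher and Suv39h1 lower, whereas both were higher in GO2 than in GO1. The part of antisense counts in the Suv39h1 values was not tested. Suv39h2 shares 357 exonic bases (8.1 %) with Dclre1c on the opposite strand, which was listed at 0.493 to 0.582 in the 4 libraries, far below Suv39h2.

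For the changes between stages, the libraries of a pair were scaled to each other by a trimmed mean of log ratios, and a gene was called higher or lower when its log2 ratio, with a prior count of 1, passed 2-fold. Genes whose counts in a pair summed to at least 20 were considered, and all 6 methyltransferase genes were among them in every pair. NGO and FGO, the ends of growth, share the dUTP protocol. From NGO to FGO 2 of the 6 genes fell and 0 rose, where 16.5 % of 15312 genes fell and 18.0 % rose. Suv39h1 fell by 1.94 on the log2 scale (log2 interval -2.38 to -1.55) and Ehmt2 fell by 1.42 (-1.51 to -1.33), and 5.7 % of the genes considered lay below Suv39h1. The log2 changes of the other genes were 0.78 for Setdb2 (0.69 to 0.86), 0.45 for Setdb1, 0.42 for Suv39h2 and 0.08 for Ehmt1, all within 2-fold. The median over the 6 genes was 0.25, beside 0.01 over all genes considered. The stromal markers were likewise lower in FGOs (summed RPKM 5.51 in NGOs and 0.245 in FGOs), the granulosa sum was higher (5.97 and 19.4, and 1.83 and 4.66 without Nr5a2 and Cyp19a1) although Foxl2 was lower (0.0753 and 0.0265), and their part in these differences was not tested.

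GO1 and GO2, the earlier and later growing oocytes, share the ScriptSeq kit. From GO1 to GO2 Suv39h1 rose by 1.31 on the log2 scale (1.07 to 1.58), above 95.7 % of the genes considered, and 0 of the 6 genes fell. Among 15798 genes, 6.84 % rose and 2.97 % fell. The other 5 genes lay between -0.20 (Suv39h2) and 0.17 (Setdb2 and Ehmt1), with Setdb1 at 0.08 and Ehmt2 at -0.13. Suv39h1 was thus lower in FGOs than in NGOs and higher in GO2 than in GO1, and its smallest counts were 63 in FGOs and 156 in GO1. With counts divided by 4 its log2 intervals were -2.85 to -1.14 from NGO to FGO and 0.82 to 1.85 from GO1 to GO2, so the latter reached below 2-fold.

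**Figure D3:**
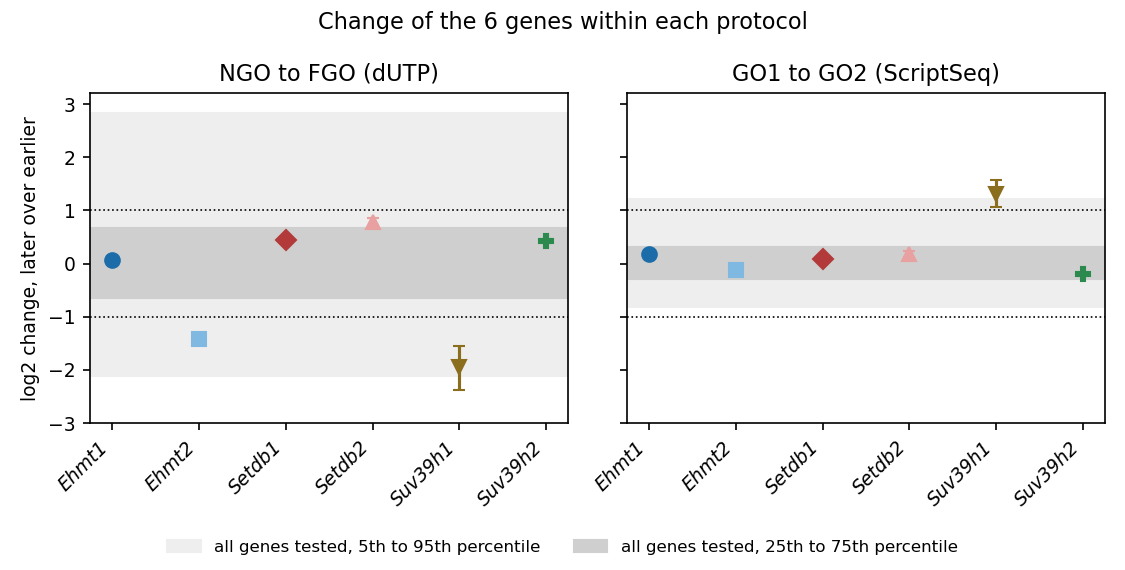
Log2 change of each gene, later over earlier stage, in the pairs of libraries made with the same protocol (NGO to FGO and GO1 to GO2). Bars are 95 % intervals for counting error, dotted lines mark 2-fold, and grey bands show all genes considered, the darker one between the quartiles and the lighter one without the outer 5 % on each side. Ehmt2 (-1.42) and Suv39h1 (-1.94) lie below the lower dotted line from NGO to FGO, and Suv39h1 (1.31) above the upper one from GO1 to GO2.

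The pairs that cross protocols are given side by side with these, since stage and protocol cannot be told apart in them. From NGO to GO1, over the onset of growth, Ehmt2 fell by 1.18 on the log2 scale (-1.27 to -1.10) and 0 of the 6 genes rose, where 20.5 % of genes fell and 17.6 % rose. Setdb2 was just within 2-fold, at 0.99 (0.91 to 1.07). Suv39h2 stood at 0.79, Setdb1 at 0.36, Ehmt1 at 0.04 and Suv39h1 at -0.63. From GO2 to FGO, over the end of growth, Suv39h1 fell by 2.70 (-3.11 to -2.34), lower than all but 2.4 % of genes, and 0 of the 6 genes rose, where 9.63 % of genes fell and 10.7 % rose. The other 5 genes lay between -0.46 (Setdb2) and -0.07 (Setdb1). Scaled by the library totals alone, the median of all genes moved to -0.15 from NGO to GO1 and to 0.10 from GO2 to FGO, and with it Ehmt1 turned to -0.13 in the first pair and Setdb1 to 0.06 in the second. All pairs draw on the same 4 libraries. The high NGO value of Ehmt2 enters NGO to FGO and NGO to GO1. The low FGO value of Suv39h1 enters NGO to FGO as well, and GO2 to FGO.

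Genes with the most similar pattern were sought among 10812 genes that had 100 counts or more in each of the libraries, by the largest difference over the 4 libraries between log2 RPKM patterns centred on their means. For Ehmt2 these were Eif2b5 (0.05), Atp6ap2 (0.06) and Padi6 (0.06). Padi6, an oocyte gene of the cytoplasmic lattices, had RPKM values of 3360, 1371, 1207 and 1253 from NGO to FGO, so it shared with Ehmt2 the high NGO value and the near level later ones. For Ehmt1 they were Map3k6, Ing5 and Mto1 (0.02 to 0.03), for Setdb1 Herc2, Btbd10 and Asnsd1 (0.02 to 0.03), for Setdb2 Ccdc94, Sc4mol and Tube1 (0.02 to 0.04), and for Suv39h2 Ndufaf4, Rfwd2 and Anln (0.01 to 0.02). Within 0.2 there were 575 genes for Ehmt1, 644 for Setdb1, 596 for Suv39h2, 296 for Setdb2 and 106 for Ehmt2. Suv39h1 had none within 0.5, the nearest being Zkscan3 (0.59), Gm4963 (0.60) and Tcp11l1 (0.67), but with 63 counts in FGOs it would itself not have been a candidate. Among 12960 genes that had 20 or more in each library, a minimum added after the values were seen, Bace1 (0.11) and Tapbpl (0.50) were nearest to Suv39h1. Among the methyltransferase genes themselves, Ehmt1 and Setdb1 were closest (0.23), followed by Setdb1 with Suv39h2 (0.29) and Setdb2 with Suv39h2 (0.29), while Ehmt1 and Ehmt2, whose proteins form the heterodimer, were 1.06 apart.

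The other genes of the pathway comprised 31 genes in 5 lists, all with enough counts to be considered. From NGO to FGO 1 of the 31 rose and 3 fell, beside the 18.0 % and 16.5 % of all genes, with a median log2 change of -0.08 against 0.01. From GO1 to GO2 0 rose and 0 fell, beside 6.84 % and 2.97 % of all genes, with a median of -0.23 against 0.01. In the pairs that cross protocols, 9 rose and 3 fell from NGO to GO1 (17.6 % and 20.5 % of all genes, median 0.58), and 0 rose and 2 fell from GO2 to FGO (10.7 % and 9.63 %, median -0.42).

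Among the partners of EHMT1 and EHMT2, Zfp644, a zinc finger protein that brings the enzymes to their targets together with WIZ, had an RPKM of 23.7 for NGO, 19.1 for GO1, 11.9 for GO2 and 5.99 for FGO. It was lower at each later stage and fell by 1.91 on the log2 scale from NGO to FGO. Wiz, at 0.791, 1.15, 0.726 and 0.499, and Cdyl2, a chromodomain protein, at 2.75, 2.49, 1.54 and 1.57, were within 2-fold (-0.59 and -0.73). Cdyl, which binds methylated H3K9, stood at 7.02, 12.6, 13.4 and 13.0, a log2 change of 0.96 from NGO to FGO. Unlike Ehmt2, whose values from GO1 onwards lay between 2.13 and 2.34, Zfp644 continued downwards to FGOs.

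The 8 partners of SETDB1 stayed within 2-fold in both pairs of the same protocol, with medians of 0.24 and -0.15. Of all genes, 18.0 % rose and 16.5 % fell past 2-fold from NGO to FGO, and 6.84 % and 2.97 % from GO1 to GO2. Trim28, the corepressor that recruits SETDB1, had 50.5 for NGO, 18.1 for GO1, 27.1 for GO2 and 56.1 for FGO, so the dUTP libraries were high and the ScriptSeq libraries low. Zfp57, the KRAB zinc finger protein that guards imprints, was the highest of them at 116, 160, 159 and 154. Mphosph8, a chromodomain subunit of the HUSH complex, had 12.5, 29.0, 25.7 and 17.9, with the ScriptSeq libraries above the others, and Atf7ip, which stabilises SETDB1, had 6.16, 12.4, 9.33 and 7.43. Trim28 fell by 1.31 from NGO to GO1, whereas Mphosph8, Atf7ip and Atf7ip2 rose by 1.10 to 1.39, in the pair where protocol and stage cannot be told apart.

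Of the readers of H3K9 methylation and the H4K20 methyltransferases that act after SUV39H, Suv420h1 fell by 1.88 from NGO to FGO, with an RPKM of 2.39, 2.08, 1.13 and 0.621 over the libraries. The other H4K20 gene, Suv420h2, stood at 1.33, 0.546, 0.8325 and 1.26. Its log2 change was -0.01 from NGO to FGO and 0.56 from GO1 to GO2, and across protocols it fell by 1.115 from NGO to GO1. The HP1 genes Cbx1 (12.9, 14.2, 10.6 and 10.9) and Cbx5 (5.47, 7.24, 5.93 and 3.98) were within 2-fold in all pairs. The third HP1 gene, Cbx3, had an RPKM of 0.241, 0.667, 0.431 and 0.117. It was within 2-fold in the pairs of the same protocol (-0.96 and -0.67). Across protocols it rose by 1.628 (1.285 to 2.006) from NGO to GO1 and fell by 1.995 (-2.495 to -1.561) from GO2 to FGO. Cbx3 had only 45 to 336 counts and has processed pseudogene copies, so its values are uncertain. Dppa3 was the most abundant gene of the lists, at 844, 960, 807 and 461, within 2-fold in all pairs.

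Among the 10 H3K9 demethylases Kdm4c fell by 1.53 from NGO to FGO (1.23, 1.09, 0.714 and 0.405 RPKM), and the other 9 were within 2-fold, with a median of -0.01 for the list. In this pair 16.5 % of all genes fell and 18.0 % rose. Kdm4a was the highest of the KDM4 genes at 13.0, 11.6, 16.0 and 16.3. Of the 3 genes of the PRDM family, which includes further lysine methyltransferases, Mecom rose by 1.97, from 0.138 in NGOs to 0.518 in FGOs with 0.367 and 0.497 between, while Prdm2 and Prdm16 stood at 0.47 and 0.56.

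**Figure D4:**
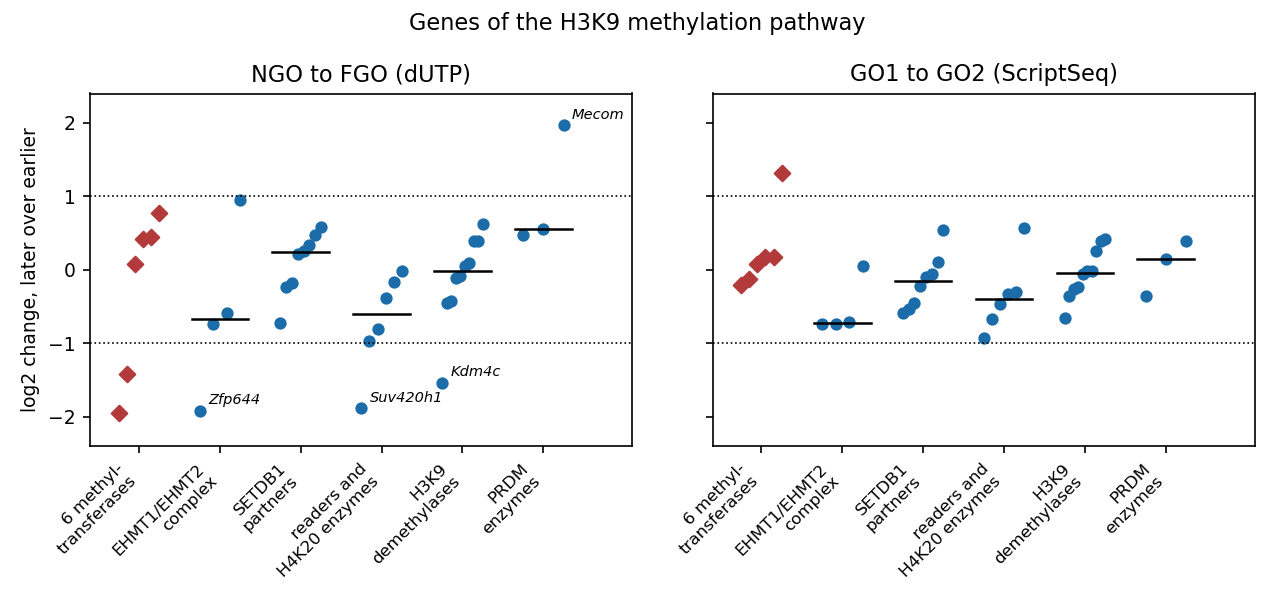
Log2 change from NGO to FGO and from GO1 to GO2 of the 6 methyltransferase genes (red diamonds) and of the 31 genes of 5 pathway lists (blue points, black lines at list medians); dotted lines mark 2-fold. Mecom lies above and Zfp644, Suv420h1 and Kdm4c below these lines from NGO to FGO, and no listed pathway gene passes them from GO1 to GO2.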

How the data were processed

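Total RNA of pooled oocytes was sequenced in 4 libraries, 1 per stage (NGO, GO1, GO2 and FGO), with 100 bp paired-end reads. Per the study's methods and the submitters' processing notes, reads were trimmed with Trim Galore 0.2.8 and mapped to GRCm38 with TopHat 2.0.9. The authors deposited a single table of RPKM per gene. The program, annotation and strand setting behind these values are not given in the sources used here.

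Single-exon genes gave values that were whole multiples of what 1 count is worth (99.4 to 99.7 % of values within 0.02 of a whole count), from which the library totals and then, with GENCODE M21 lengths or the smallest fitting length, the counts behind the deposited RPKM of each gene were recovered. The length of Ehmt1 was such a fitted length, 7136 bases against 8116 in GENCODE, and the other 5 genes matched their exon length. Poisson and exact 95 % intervals (scipy 1.17.1) cover counting error only, and 3 counts was taken as the floor, 0.0124 to 0.0271 RPKM for a gene of 1 kb. The methyltransferase genes, pathway lists and markers were chosen with earlier results of these data known. All 6 genes were named, with every pathway gene that passed 2-fold in a pair of the same protocol and the 3 genes nearest in pattern to each of the 6. In the table Fam208a is listed as D14Abb1e, and of the duplicate entries of Atf7ip the one with more counts was used. Steps were tested on simulated data. Alternatives were library scaling, prior count, count minimum, fold threshold and gene length. No column of other samples was present in the table (0 unused). Scripts ran in Python 3.11.15 with numpy 2.4.6 and pandas 2.3.3.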

Additional observations from a re-analysis of the deposited data

How the results depend on the processing

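With 1 library per stage, no left-out replicate and no test was possible, and depth limits Suv39h1 (63 to 764 counts) and, among the pathway genes, Cbx3 (45 to 336) and Kdm4d (59 to 152). No paired analysis was possible because each stage has 1 library. The direction of every change past 2-fold among the 6 genes was kept under the other scalings, prior count and count minima. At a 4-fold threshold 0 of the 6 genes passed from NGO to FGO, 0 from GO1 to GO2 and 0 from NGO to GO1, while Suv39h1 still passed from GO2 to FGO. Of all genes, 8.71 % were higher and 5.49 % lower at 4-fold from NGO to FGO, and 1.56 % and 0.253 % from GO1 to GO2. These shares were 5.49 % and 6.28 % from NGO to GO1, and 1.75 % and 3.46 % from GO2 to FGO. At 1.5-fold 4 passed from NGO to GO1 (2 higher, 2 lower), beside 29.1 % of all genes higher and 30.5 % lower. Of the 31 pathway genes, 12 passed 1.5-fold from NGO to FGO (4 higher, 8 lower, beside 27.7 % and 26.7 % of all genes) and 0 passed 4-fold, against 4 at 2-fold, and from GO1 to GO2 7 passed 1.5-fold, all lower, against 0 (9.84 % of all genes were lower at 1.5-fold). The counts thus depended on the threshold chosen. At 1.5-fold from GO1 to GO2 the pathway genes that passed were all lower, whereas more of all genes were higher than lower. The reason for this difference was not tested. With the longest coding transcript Suv39h2 exceeded Suv39h1 by 21.9- to 122-fold in place of 36.3- to 202-fold. The ratio of Ehmt1 to Ehmt2 in NGOs crossed 1, at 0.9997 with the GENCODE exon length and 0.9996 with the longest coding transcript, the latter added after the values were seen.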
